A study of Ciona robusta with 133 samples.

Results

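KH.C7.43, named Tfap2-r.b here, and KH.C7.770, named Dlx.b here, are 2 of the 15287 gene models counted in single cells of early embryos of the ascidian Ciona robusta. Both rows were chosen by identifier as regulators of the epidermis, and their counts per 1000000 reads (CPM) were followed through 19 cell types at 5 stages. KH.C7.43 was counted in every a-line library, and its mean was highest in the epidermal cells a9.43+a9.44 and a8.22. At 64 cells its mean was not higher in the epidermal a7.11 (31.1 CPM) than in the neural a7.10 (41.0 CPM). KH.C7.770 was not high in epidermal cells. It had counts in 27 libraries only, among them 1 of 6 of a9.43+a9.44, 2 of 7 of a8.22 and none of a7.11. It is therefore called by its identifier below. The names come with the choice of rows, the deposited table holds identifiers only, and 0 identifiers were found in the RefSeq gene table used here, so neither name could be checked.

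AP-2 proteins, the family of Tfap2-r.b, are transcription factors that bind DNA as dimers and act early in the ectoderm of many animals. In Ciona, Tfap2-r.b is known for specifying ectoderm together with Sox1/2/3. Distal-less proteins, the family of Dlx.b, are homeodomain transcription factors that pattern ectoderm, nervous system and appendages in vertebrates and insects. In the ascidian embryo the a line, from the anterior animal cells, gives epidermis and the anterior nervous system, and FGF from vegetal neighbours sets its neural cells apart from their epidermal sisters. The A line, from the anterior vegetal cells, gives notochord, endoderm and the posterior nervous system.

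The libraries were made from single blastomeres dissected by hand from normal embryos, with no treatment or genetic change in the labels. The a line was followed through a5.3 at 16 cells, a6.6 and a6.5 at 32 cells, a7.11 and a7.10 at 64 cells, a8.22 and a8.19 at 112 cells, and, at the 6-row neural plate stage, a9.43+a9.44 along with a9.37+a9.38. The A line was followed through A5.1, then A6.2 and A6.1, then A7.4, A7.3 and A7.2, then A8.7 and A8.5, and at the last stage A9.9+A9.10 with A9.13+A9.14. By textbook fate maps the cells a9.43+a9.44, a8.22 and a7.11 are epidermal, and with a6.6 they are called the epidermal side below. The neural side of the a line is a6.5, a7.10, a8.19 and a9.37+a9.38. In the A line, A5.1, A6.2, A7.4, A8.7 and A9.13+A9.14 are called the neural side. Of these, A5.1 and A6.2 also give A-line types that are not neural. Neural plate groups name a pair of cells; which cell of the pair a library holds is not told. Each cell type had 6 to 9 libraries from 2 to 8 embryos, with 61 a-line and 72 A-line libraries in all. Cells of 1 type from 1 embryo were summed into 87 embryo samples, so n below counts embryos.

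The median library held 7546701 counts, the smallest 1452103 and the largest 16599891. Some A-line libraries stood apart. The A6.1 library of embryo 5 had 7137 genes detected, against 10675 to 11653 in the other 17 A-line libraries of the stage, gave no count for either gene and was left out of the tests at 32 cells. In it 140 genes seen mostly in a-line cells of that stage summed to 9190 CPM, against at most 1399 CPM in the other A-line libraries, and 38 of the 140 had a count, against 55 to 96. The A9.9+A9.10 library of embryo 3* summed to 7962 CPM over 321 such genes of its stage, with 98 of them counted. The other A9.9+A9.10 libraries summed to 925 to 1379 CPM, and the A9.13+A9.14 libraries to 3499 to 5373 CPM. The A8.7 library of embryo 5, with 9957 genes detected, had a median correlation of 0.899 with the other A8.7 libraries, against 0.920 to 0.939 among those. In it 261 genes seen mostly in a-line cells of the 112-cell stage, a list drawn from these same samples like the others, summed to 3633 CPM, and 141 of them had a count, against 102 to 149 in the other A8.7 libraries. The a-line libraries of the stage summed to 4212 to 10373 CPM, and the other 13 A-line libraries to 628 to 1112 CPM. That library held the highest A-line value of both genes, and the 112-cell comparisons and cell type patterns that use it are given with and without it.

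KH.C7.43 (Tfap2-r.b) was present in every a-line cell and scattered and low in the A line. All 61 a-line libraries had at least 1 count, and 60 had at least 10. Of 72 A-line libraries, 49 had a count and 34 had at least 10. Over all libraries, the pooled level was 64.0 CPM in the a line and 6.19 CPM in the A line. The reads carry no molecular identifiers, so intervals and limits given here cover counting error only.

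**Figure D1:**
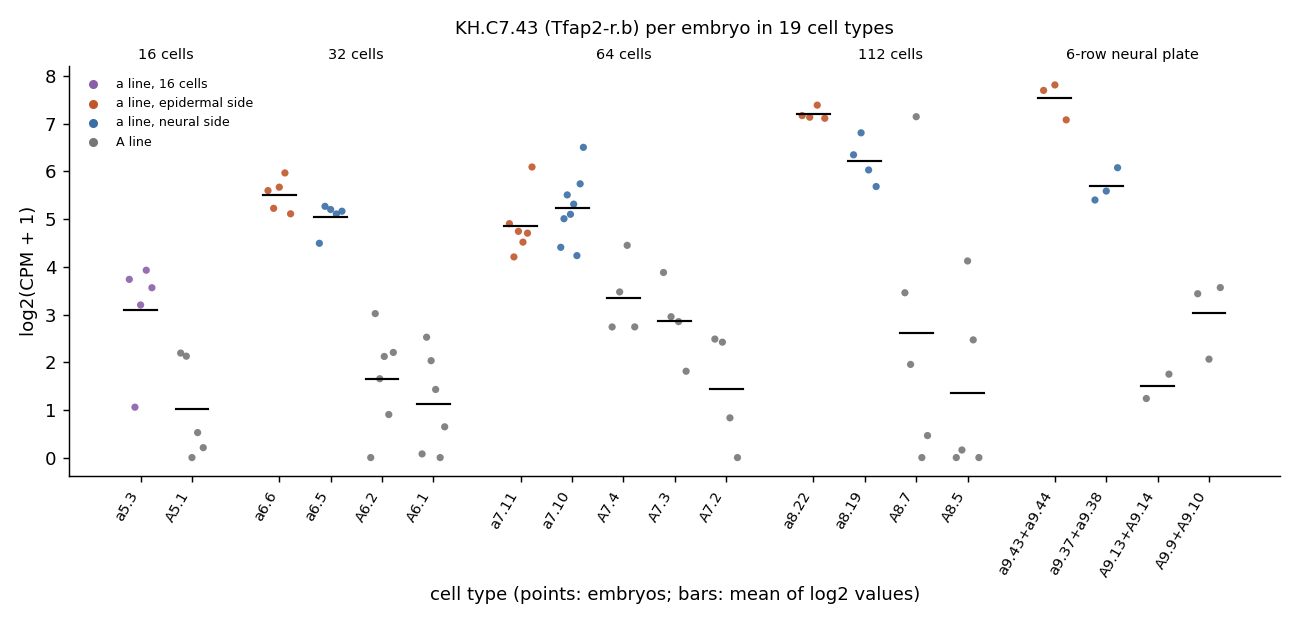
KH.C7.43 (Tfap2-r.b) in 19 cell types, as log2(CPM + 1) on the vertical axis, with a point for each embryo and a bar for the mean of the log2 values. From 32 cells on the a-line samples lie above the A-line samples of their stage, except that A7.4 of embryo 4 (20.9 CPM) lies among the lowest a-line samples at 64 cells and A8.7 of embryo 5 (140.8 CPM) lies within the a-line range at 112 cells.

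The level was highest in epidermal-side cells of the last stages. It stood at 188 ± 47.6 CPM in a9.43+a9.44 (SD, n = 3) and 147 ± 13.5 CPM in a8.22 (n = 4). Next came a8.19 at 76.6 ± 26.1 CPM (n = 4), a9.37+a9.38 at 51.7 ± 13.2 CPM (n = 3) and a6.6 at 45.8 ± 11.3 CPM (n = 5). Below these were a7.10 at 41.0 ± 22.9 CPM (n = 8), a6.5 at 32.7 ± 6.39 CPM (n = 5) and a7.11 at 31.1 ± 18.2 CPM (n = 6). The earliest a-line cell, a5.3, stood at 9.33 ± 5.11 CPM (n = 5). In this order of 19 cell types, the step between a8.22 and a8.19 was the only one between neighbours where the embryos did not overlap, and also the only one larger than the larger SD of the pair.

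Most A-line types lay at or below 10.6 CPM. A7.4 had 10.6 ± 7.16 CPM (n = 4), A9.9+A9.10 7.94 ± 4.16 CPM (n = 3) and A7.3 7.3 ± 4.69 CPM (n = 4). A8.5 had 4.21 ± 7.1 CPM (n = 5), A6.2 2.85 ± 2.51 CPM (n = 6) and A7.2 2.43 ± 2.38 CPM (n = 4). The lowest were A9.13+A9.14 at 1.86 ± 0.709 CPM (n = 2), A6.1 at 1.69 ± 1.90 CPM (n = 6) and A5.1 at 1.51 ± 1.80 CPM (n = 5). Without embryo 5, A6.1 had 2.03 ± 1.92 CPM (n = 5), above A9.13+A9.14. A8.7 had 30.8 ± 61.6 CPM (n = 5), and 3.31 ± 4.63 CPM (n = 4) without embryo 5. Spread between cells of 1 embryo was also wide in the A line: in A6.1 of embryo 2 the left and right cells differed 40.5-fold. In the a line, cells of 1 type and embryo differed by 1.02-fold to 2.47-fold.

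At 16 cells KH.C7.43 was already detected in all 7 a5.3 libraries. The a5.3 samples had 12.3, 1.08, 8.2, 14.2 and 10.8 CPM in embryos 1, 3, 4, 5 and 6. The A5.1 samples of the same embryos had 3.57, 3.37, 0, 0.438 and 0.155 CPM. The a5.3 sample was higher in 4 of 5 embryos, and embryo 3 went the other way. The log2 difference, a5.3 minus A5.1, was 2.65 ± 0.94 (SE) and did not pass edgeR's quasi-likelihood test with Benjamini-Hochberg adjustment over all genes (adjusted p = 0.269). In that comparison 0.151% of genes passed, the threshold being an adjusted p of 0.05. An exact permutation test on log2(CPM + 1) within the 5 shared embryos, chosen after the data were seen, gave p = 0.125 (two-sided), where 0.0625 is the smallest possible, or 0.208 after adjustment over the 5 pairs of cell types so tested. With the sharing of embryos ignored, the exact p was 0.0317, or 0.0794 after the same adjustment.

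At 32 cells every a-line sample, the lowest at 21.5 CPM, lay above every A-line sample, the highest at 7.1 CPM. At 64 cells the a-line samples began at 17.5 CPM and A7.4 of embryo 4 reached 20.9 CPM, so the lineages overlapped in that sample. At 112 cells the a-line samples began at 50.4 CPM, and the A-line samples ended at 16.4 CPM apart from A8.7 of embryo 5. At the neural plate stage the lowest a-line sample had 41.3 CPM and the highest A-line sample, A9.9+A9.10 of embryo 3*, 10.8 CPM. Single cells overlapped there: an A9.9+A9.10 cell of embryo 2* had 26.9 CPM and an a9.37+a9.38 cell of embryo 1 had 20.8 CPM.

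The log2 difference between the mean of the a-line types and the mean of the A-line types was 3.95 ± 0.55 (SE) at 32 cells (adjusted p = 2.84e-05), where 26.4% of genes passed in either direction. With the A6.1 library of embryo 5 kept it was 3.99 ± 0.58 (adjusted p = 0.000145), and 1515 genes passed in place of 2963. At 64 cells it was 2.61 ± 0.44 (adjusted p = 5.70e-05), where 28.9% of genes passed. At 112 cells it was 3.24 ± 1.07 and did not pass (adjusted p = 0.0970), where 4.61% of genes passed. Without the A8.7 library of embryo 5 it was 4.84 ± 0.98 and passed (adjusted p = 0.00581), with 4.86% of genes passing. At the neural plate stage the difference was 4.67 ± 0.41 (adjusted p = 0.000123), where 1.18% of genes passed, and without A9.9+A9.10 embryo 3* it was 4.81 ± 0.40 (adjusted p = 6.52e-05). Beyond 16 cells, a-line and A-line cells are not labelled as coming from the same embryos, so embryo and lineage cannot be told apart there. These fits had no embryo term, so an embryo entered once for each of its cell types, as if these were independent. Residual expression in samples of 1 embryo was correlated (mean r = 0.380 at 32 cells and 0.160 at 64 cells). The SEs and adjusted p values between lineages can therefore be too small. A block by equal embryo number joins cells not stated to share an embryo.

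Neural-side cells of both lineages were also set side by side, as contrasts added after the data were seen. KH.C7.43 was higher in a6.5 than in A6.2 by 3.46 ± 0.74 on the log2 scale (adjusted p = 0.00520), where 10.1% of genes passed. With the A6.1 library of embryo 5 kept, the adjusted p was 0.0482 and 53 genes passed in place of 1135. It was higher in a9.37+a9.38 than in A9.13+A9.14 by 4.74 ± 0.62 (adjusted p = 0.0123), where 0.11% of genes passed. That last call rests on 2 A9.13+A9.14 embryos, and without embryo 1* or 2* the log2 difference was 4.44 and 5.26 with adjusted p = 0.243 and 0.109. In those fits the lone sample is assumed to vary like the other groups. Between a7.10 and A7.4 the difference was 1.91 ± 0.69 and did not pass (adjusted p = 0.0761), where 10.7% of genes passed; by DESeq2 its adjusted p was 0.0163. Between a8.19 and A8.7 it was 1.30 ± 1.43 (adjusted p = 0.886), where 0.538% of genes passed, and 4.50 ± 1.4 without the A8.7 library of embryo 5 (adjusted p = 0.160; 0.975% of genes passed).

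Within the a line, the level rose from 16 to 32 cells on both sides. The 5 a6.6 samples had 47.5, 36.4, 49.9, 61.6 and 33.6 CPM in embryos 1 to 5, and the 5 a6.5 samples had 21.5, 37.5, 35.8, 33.5 and 34.9 CPM. All of these were above every a5.3 sample. Against a5.3, the log2 change was 2.25 ± 0.40 (SE) in a6.6 (adjusted p = 0.000346), where 2.19% of genes passed, and 1.77 ± 0.39 in a6.5 (adjusted p = 0.00816), where 1.41% of genes passed. Mean levels were 4.91 and 3.50 times that of a5.3.

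**Figure D2:**
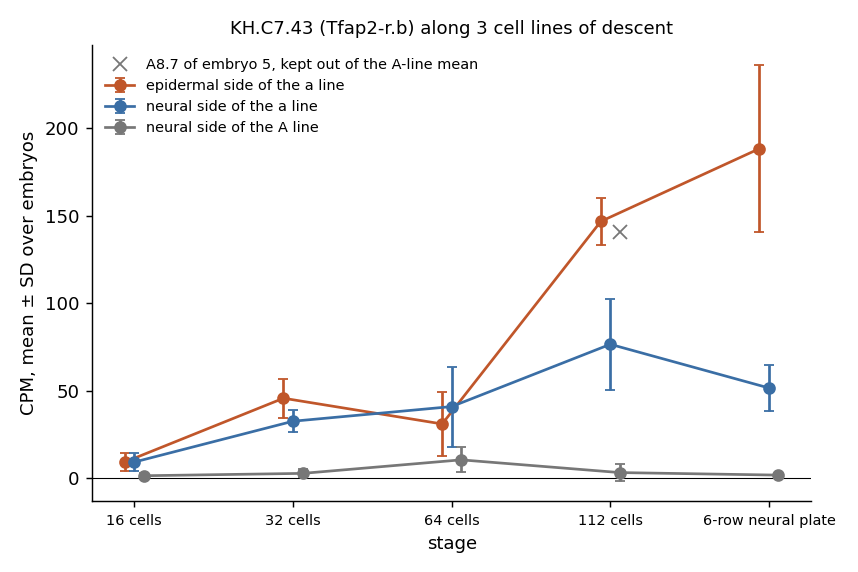
KH.C7.43 (Tfap2-r.b) as CPM (mean ± SD over embryos) against stage, along the epidermal side of the a line, the neural side of the a line and the neural side of the A line. The sides of the a line stay close up to 64 cells and then part, to 147 and 76.6 CPM (112 cells) and 188 and 51.7 CPM (neural plate); the cross marks A8.7 of embryo 5, kept out of the A-line mean.

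Between 32 and 64 cells no change passed on either side. The 6 a7.11 samples ran from 17.5 to 67.3 CPM with a median of 25.5 CPM, and the 8 a7.10 samples ran from 17.8 to 89.9 CPM with a median of 36.1 CPM. The log2 change was -0.57 ± 0.36 in a7.11 against a6.6 (adjusted p = 0.358; 9.08% of genes passed). It was 0.30 ± 0.34 in a7.10 against a6.5 (adjusted p = 0.637; 14.5% of genes passed). In both a7.11 and a7.10 the highest sample came from embryo 8.

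From 64 to 112 cells the epidermal side rose. The a8.22 samples had 143, 139.8, 167 and 138 CPM in embryos 1 to 4, and each was above every a7.11 sample. The log2 change was 2.30 ± 0.38 (adjusted p = 4.35e-05), a 4.72-fold higher mean, in a comparison where 17.2% of genes passed. It passed without any single embryo, with adjusted p between 6.40e-06 and 0.000246 in 10 fits. On the neural side the a8.19 samples had 80.5, 111, 64.4 and 50.4 CPM in embryos 1 to 4, which overlapped the a7.10 range. The neural-side change was 0.96 ± 0.36 and just missed the threshold (adjusted p = 0.0505; 19.4% of genes passed), while DESeq2 gave 0.0426. Leaving out embryo 7 or 8 of a7.10 or embryo 4 of a8.19 brought it to 0.0470, 0.0105 and 0.0436.

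From 112 cells to the neural plate no change passed on either side. The a9.43+a9.44 samples had 207, 224 and 134 CPM in embryos 1 to 3, a log2 change of 0.39 ± 0.45 from a8.22 (adjusted p = 0.606; 20.6% of genes passed). The a9.37+a9.38 samples had 41.3, 47.1 and 66.6 CPM, a log2 change of -0.58 ± 0.46 from a8.19 (adjusted p = 0.416; 18.8% of genes passed).

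Epidermal-side and neural-side types of the a line were then compared within each stage, with cells of both sides taken from the same embryos. At 32 cells a6.6 was higher than a6.5 in 3 of 5 embryos, by a median ratio of 1.39, and at 64 cells a7.11 was higher than a7.10 in 1 of 6, by a median ratio of 0.658. At 112 cells a8.22 was higher than a8.19 in 4 of 4 embryos, by ratios of 1.26 to 2.73. At the neural plate stage a9.43+a9.44 was higher than a9.37+a9.38 in 3 of 3 embryos, by ratios of 2.02 to 5.01. As embryo samples, the groups of the last 2 stages did not overlap, and those of the first 2 did. Single cells overlapped at 112 cells, with 87.6 to 192 CPM in a8.22 libraries and 50.4 to 123 CPM in a8.19 libraries. On the left side of embryo 1 and the right side of embryo 2 the a8.22 cell was the lower. In the other same-side pairs of that stage it was the higher.

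**Figure D3:**
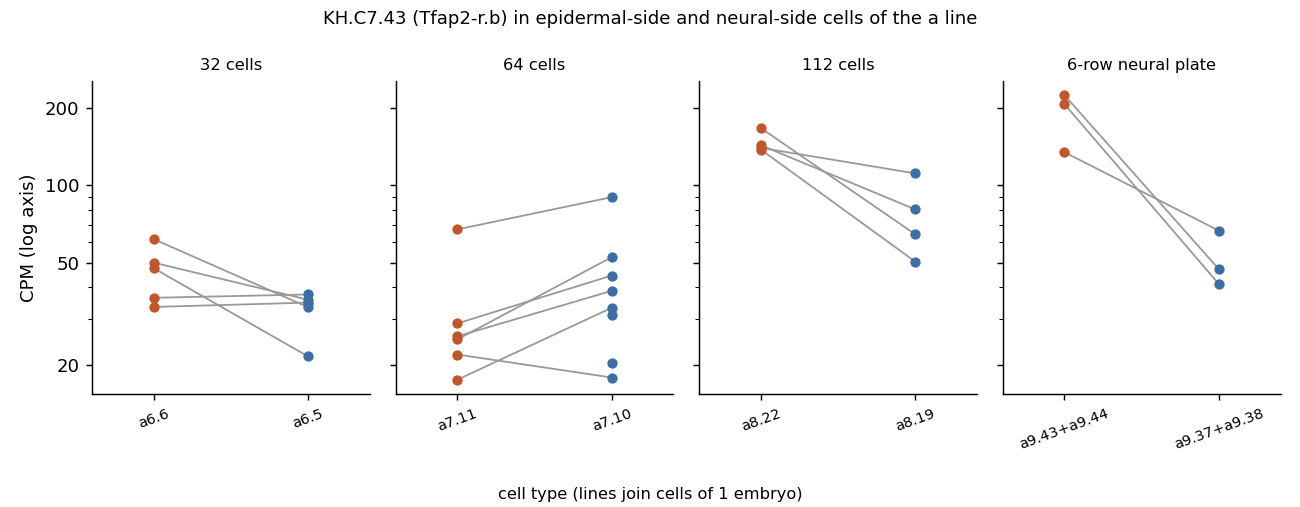
KH.C7.43 (Tfap2-r.b) in epidermal-side cells (left of each panel) and neural-side cells (right), as CPM on a log axis at 4 stages. Points are embryo samples and lines join samples of 1 embryo; all 4 lines at 112 cells and all 3 at the neural plate stage run downward to the neural side.

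None of these 4 differences between the sides passed the adjusted test in the fits by stage. The log2 difference was 0.48 ± 0.71 at 32 cells (adjusted p = 1; 0.00891% of genes passed) and -0.39 ± 0.56 at 64 cells (adjusted p = 0.978; 0.309% of genes passed). At 112 cells it was 0.95 ± 1.51 (adjusted p = 1; 0.15% of genes passed), and 0.95 ± 1.21 without the A8.7 library of embryo 5 (adjusted p = 1; 0.266% of genes passed). At the neural plate stage it was 1.91 ± 0.45 (adjusted p = 0.106; 0.769% of genes passed). That last difference passed by DESeq2 (adjusted p = 0.00360), and its adjusted p was 0.191 where the embryo entered as a block. The 4 contrasts were also taken from the a-line samples of all stages, an alternative chosen after the data were seen. The 32-cell and 64-cell differences did not pass there (adjusted p = 1 and 0.769; 0.0555% and 0.721% of genes passed). At 112 cells the difference was 0.95 ± 0.42 and did not pass (adjusted p = 0.297; 0.879% of genes passed), and at the neural plate stage it was 1.92 ± 0.50 and passed (adjusted p = 0.0387; 1.27% of genes passed). Exact two-sided permutation tests on log2(CPM + 1) within shared embryos set each epidermal-side type against the neural-side type of its stage. The exact permutation test gave p = 0.25 for a6.6, 0.0625 for a7.11, 0.125 for a8.22 and 0.25 for a9.43+a9.44. The values for the last 2 stages are the smallest that 4 and 3 pairs can give, so no test of this kind could pass there. With the sharing of embryos ignored, the exact p was 0.0714, 0.349, 0.0286 and 0.1 in the same order.

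The change over time was also compared between sides. From 64 to 112 cells the epidermal-side change exceeded the neural-side change by 1.34 ± 0.54 on the log2 scale (adjusted p = 0.286; 0.0713% of genes passed). From 112 cells to the neural plate it did so by 0.97 ± 0.65 (adjusted p = 0.706; 0.277% of genes passed). From 32 to 64 cells the difference was -0.87 ± 0.50 (adjusted p = 0.879), where edgeR called 0 genes (0.0%) and 6.51% of genes had an unadjusted p below 0.05; DESeq2 called 72 genes there and gave KH.C7.43 an adjusted p of 1. The rise from 64 to 112 cells is therefore not shown to differ between the sides.

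At the neural plate stage the labels also give the column a cell was taken from. KH.C7.43 ran from 134 to 253 CPM in 3 column 2 cells of a9.43+a9.44 and from 161 to 212 CPM in 3 column 1 cells. In a9.37+a9.38 it ran from 20.8 to 66.6 CPM in column 2 and from 39.3 to 51.3 CPM in column 1. The columns overlapped in both types, and every a9.43+a9.44 library lay above every a9.37+a9.38 library in both columns.

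Among A-line cells KH.C7.43 showed no difference that passed, in contrasts added after the data were seen. A7.4 exceeded A7.2 in 4 of 4 embryos, with a log2 difference of 2.11 ± 0.77 (adjusted p = 1; 0.0172% of genes passed), and exceeded A7.3 in 3 of 4, with 0.58 ± 0.74 (adjusted p = 1; 0.00859% of genes passed). A6.2 minus A6.1 was 0.50 ± 0.73 (adjusted p = 1.00), where edgeR called 0 genes, 4.6% had an unadjusted p below 0.05 and DESeq2 called 5. A8.7 minus A8.5 was 2.93 ± 1.48 (adjusted p = 0.773; 0.335% of genes passed), and -0.26 ± 1.21 without the A8.7 library of embryo 5 (adjusted p = 1; 0.408% of genes passed). With the embryo as a block it was 3.0 ± 1.96 without that library (adjusted p = 0.936), and A8.7 was higher in 3 of the 4 remaining embryos, so the direction differed between fits. A9.13+A9.14 minus A9.9+A9.10 was -2.05 ± 0.56 (adjusted p = 0.348; 0.211% of genes passed), with a DESeq2 adjusted p of 0.0326; without A9.9+A9.10 embryo 2* the edgeR adjusted p was 0.0467.

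**Figure D4:**
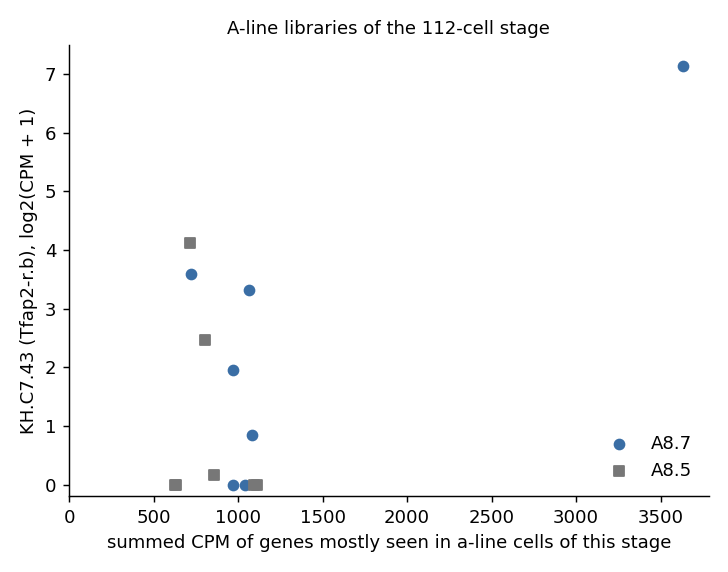
The 14 A-line libraries of the 112-cell stage, with the summed CPM of 261 genes seen mostly in a-line cells on the horizontal axis and KH.C7.43 (Tfap2-r.b) as log2(CPM + 1) on the vertical axis. The A8.7 library of embryo 5 stands alone at 3633 and 140.8 CPM; the other 13 lie between 628 and 1112 CPM.

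The A-line counts at 64 cells were set beside the same kind of sum. The 123 genes seen mostly in a-line cells of that stage summed to 1854 to 3136 CPM in a-line libraries and to 150 to 766 CPM in 21 A-line libraries. The A7.4 library with most KH.C7.43, at 29.3 CPM, had a sum of 411 CPM, which lies inside the range of the other A7.4 libraries. Over all 21 A-line libraries of the stage the Pearson r between the log2 sum and log2 KH.C7.43 was 0.57, as a description of cells that share embryos and differ in depth. The part of this signal in the A-line counts was not tested.

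KH.C7.770 (Dlx.b) gave 667 counts in all, in 27 libraries. A count was seen in 10 of 61 a-line libraries (16.4%) and in 17 of 72 A-line libraries (23.6%). The A8.7 library of embryo 5 held 21.6% of all counts, and the 5 highest libraries held 61.2%. In 12 cell types it had a count, and in 11 of these the SD over embryos was above the mean.

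**Figure D5:**
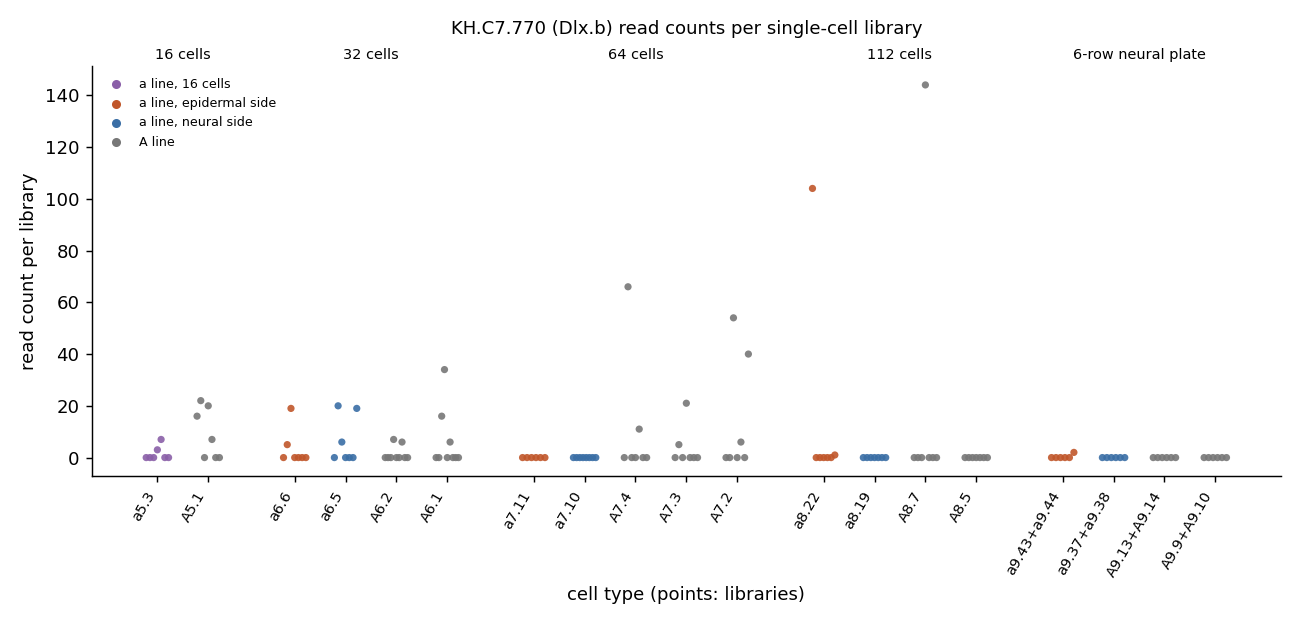
KH.C7.770 (Dlx.b) as read counts per library in 19 cell types, with a point for each library. Most points lie at 0, and the highest are 144 counts in an A8.7 library, 104 in an a8.22 library and 66 in an A7.4 library.

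On the epidermal side KH.C7.770 was near or at 0 at the later stages. In a8.22 the left cell of embryo 1 had 104 counts (11.8 CPM), 1 other library had 1 count and the other 5 had 0. In a9.43+a9.44, 1 library had 2 counts and 5 had 0, a pooled level between 0.00684 and 0.204 CPM (exact 95% Poisson interval of the pooled count). In a7.11 all 6 libraries had 0, which allows a level of up to 0.0563 CPM, taking 3 counts as the limit for a count of 0. In a6.6 only embryo 2 had counts, 5 in the left and 19 in the right cell.

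Neural-side a cells had counts at 32 cells and none later. In a6.5 the 3 libraries with counts had 20, 6 and 19. All libraries of a7.10, a8.19 and a9.37+a9.38 had 0, which allows up to 0.0470, 0.0535 and 0.161 CPM. At 16 cells a5.3 of embryo 5 had 3 and 7 counts and the other 5 libraries had 0, while A5.1 had 16, 22, 20 and 7 counts in 4 of 7 libraries. Over the shared embryos a5.3 was higher in 0 of 5 and A5.1 in 3 of 5. The gene did not pass the low-count filter at 16 cells; with no filter the difference did not pass (log2 difference -3.0 ± 1.61, adjusted p = 0.469).

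In the A line KH.C7.770 was counted up to 64 cells, and after that in 1 library. At 64 cells counts were found in 2 of 7 A7.4 libraries (66 and 11), 2 of 7 A7.3 libraries (5 and 21) and 3 of 7 A7.2 libraries (54, 6 and 40). The 14 a-line libraries of that stage had 0, with a pooled limit of 0.0256 CPM. The A line had 1.29 CPM pooled over its libraries, 50.3 times that limit. This ratio is no lower bound, because the A-line level has its own counting error and spread between libraries. The difference between lineages passed (edgeR adjusted p = 0.00310 at 64 cells, among 28.9% of genes passing). It also passed in each of 26 fits that left out 1 cell type of 1 embryo. No fit left out a whole embryo, and A-line embryo 3 held 66, 5 and 54 counts in A7.4, A7.3 and A7.2. Samples of 1 embryo counted as independent in these fits. Of the pairs of neural-side types, a7.10 was lower than A7.4 (adjusted p = 0.0341), and without A7.4 embryo 3 the adjusted p was 0.149. For that pair DESeq2 gave an unadjusted p of 0.0635 from the model across all genes and no adjusted p. The counts came from 7 of 21 A-line libraries. At 32 cells A6.2 had 7 and 6 counts in 2 of 9 libraries and A6.1 had 16, 34 and 6 in 3 of 9. The pooled level was 0.553 CPM in the a line and 0.513 CPM in the A line, and the 32-cell difference did not pass (adjusted p = 1.00).

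At 112 cells all A-line counts, 144, came from the A8.7 library of embryo 5. The other 6 A8.7 and all 7 A8.5 libraries had 0, as had all 12 A-line libraries of the neural plate stage. KH.C7.770 did not pass the filter on low counts at 112 cells or the neural plate stage in the fits by stage, and with no filter none of its differences there passed. In the a-line fit over stages the change in a8.22 against a7.11 passed narrowly (adjusted p = 0.0498), and without a8.22 embryo 1 the adjusted p was 0.498. It passed in 2 of 10 fits that left out 1 embryo, and DESeq2 gave an unadjusted p of 0.315 in its model across all genes, with no adjusted p. No other stage step of KH.C7.770 passed.

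Both genes were counted together in 23 libraries. Of 61 a-line libraries 10 had both and 51 had KH.C7.43 alone. Of 72 A-line libraries 13 had both, 36 had KH.C7.43 alone, 4 had KH.C7.770 alone and 19 had neither. Over the 19 cell type means of log2(CPM + 1), the Pearson r between the genes was -0.085, and -0.15 without the A8.7 library of embryo 5, as a description of types with unequal depth and numbers of embryos. Levels of the 2 genes are not set against each other, since no gene lengths were used.

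Likeness was taken among 10809 genes with a highest cell type mean of at least 5 CPM. Over 19 cell types the pattern of KH.C7.43 was most like that of KH.C7.243 (r = 0.92) and KH.C14.477 (r = 0.91). Without the A8.7 library of embryo 5 both stayed the first 2, with r = 0.94 and 0.93. The second place depended on the pseudocount. With 0.1 CPM KH.S1208.1 came first (r = 0.92) and KH.C7.243 second, and with 5 CPM KH.C6.147 came second (r = 0.90) after KH.C7.243. KH.C7.243 stood at 662 ± 66 CPM in a9.43+a9.44 and 122 ± 39.3 CPM in a9.37+a9.38 (n = 3 each), and at 227 ± 43.9 CPM in a8.22 and 111 ± 47.5 CPM in a8.19 (n = 4 each). At 64 cells, where no change of KH.C7.43 passed, KH.C7.243 rose on both sides, by 1.70 ± 0.29 in a7.11 against a6.6 (adjusted p = 9.55e-05) and by 1.55 ± 0.27 in a7.10 against a6.5 (adjusted p = 8.91e-05); the difference between the genes was not tested. It too was high in A8.7 of embryo 5, at 82.6 CPM. KH.C14.477 stood at 31.8 ± 7.33 CPM in a7.11 (n = 6) and 7.41 ± 5.87 CPM in a7.10 (n = 8), after 42.7 ± 7.55 CPM in a6.6 and 38.1 ± 14.1 CPM in a6.5 (n = 5 each). Its fall in a7.10 against a6.5 passed, with a log2 change of -2.39 ± 0.51 (adjusted p = 0.00111). The difference between a7.11 and a7.10, 2.11 ± 0.86, did not pass (adjusted p = 0.408), nor did the difference of the changes between sides, 1.95 ± 0.76 (adjusted p = 0.597). For KH.C7.770 the highest likeness was 0.76 with KH.C8.784, whose highest mean, 23.2 CPM, was in A8.7. Without the A8.7 library of embryo 5 this likeness was 0.40, at rank 1170, so it rests on that library. With a pseudocount of 0.1 CPM KH.S774.2 came first instead (r = 0.85). These genes were not given names, because no source used here pairs their identifiers with one.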

How the data were processed

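Single cells were profiled by RNA-seq, each library holding 1 cell. The authors deposited whole-number read counts per gene model, without normalization; the submitters' processing notes name STAR 2.7.10a. The genome build, annotation, counting program and strand setting are not given in sources used here, so reads shared with overlapping or near-identical genes are uncertain. All columns matched a sample by name, and 0 were left out. Any pair of libraries in a group differed by a chi-square of at least 12.6 per gene, and no duplicates were merged.

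Levels are counts per 1000000 of the library or embryo total. Tests used edgeR 4.0.16 in R 4.3.3 (quasi-likelihood, robust, TMM, its low-count filter by group) on counts summed per embryo, with Benjamini-Hochberg adjustment over all genes tested. One fit covered all cell types of a stage, and one covered all a-line cell types for changes between stages. The main fits had no embryo term. SEs came from the F statistic. The pipeline was tested on simulated counts drawn without an embryo effect, so that test does not cover samples that share an embryo. DESeq2 1.42.0 was an alternative. Leaving out the A8.7 library of embryo 5 was chosen after the data were seen. The members, lists and comparisons were chosen with earlier results of these data known. Genes with a similar pattern were the 2 with the highest Pearson r per member among genes reaching 5 CPM. Lists of regulators and marker genes were drawn up by symbol and could not be applied, so cell type labels were not checked by markers. No sequences are printed.

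The labels state that cells of 1 lineage and stage with the same embryo number, and A5.1 with a5.3, share embryos, so these are paired. Residual log2 expression within pairs had a mean r of 0.264 at 16 cells, 0.380 at 32, 0.160 at 64, 0.0743 at 112 and 0.0906 at the neural plate stage. Equal embryo numbers across lineages had a mean r of 0.00535, -0.00453 and 0.00642 at 32, 64 and 112 cells, and are not stated to mark 1 embryo.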

Additional observations from a re-analysis of the deposited data

Results flagged for a closer look

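Samples that stood apart from the rest of their group by Dixon's criterion were found in 10 of 26 groups of 4 to 10 embryos tested; chance alone flags about 1 group in 20. For KH.C7.43 (Tfap2-r.b) these were the A8.7 sample of embryo 5 at 140.8 CPM, the A8.5 sample of embryo 5 at 16.4 CPM and the a7.11 sample of embryo 8 at 67.3 CPM, each the highest of its group, and the a6.5 sample of embryo 1 at 21.5 CPM, the lowest. For KH.C7.770 (Dlx.b) they were the highest samples of 6 groups: 16.3 CPM in A8.7 of embryo 5, 5.47 CPM in A7.4 of embryo 3, 5.31 CPM in a8.22 of embryo 1, 2.83 CPM in A6.1 of embryo 2, 1.43 CPM in a6.6 of embryo 2 and 0.635 CPM in a5.3 of embryo 5. In sparse counts 1 sample with reads among samples at 0 meets the criterion by itself.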

How the results depend on the processing

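For KH.C7.43, the differences between lineages at 32, 64 cells and the neural plate stage passed under every alternative run. So did the rises to a6.6, a6.5 and a8.22. Fits called without 1 embryo, here and below, left out 1 cell type of 1 embryo and kept its other cell types. In comparisons between lineages no embryo was therefore left out whole. The difference between lineages at 112 cells passed without A8.7 embryo 5 (4.84) and ranged from 3.07 to 4.84 in fits without 1 embryo, passing also without A8.5 embryo 5 (4.25). The neural plate difference between the sides of the a line passed by DESeq2 (1.92) and in the a-line samples of all stages (1.92). The change in a8.19 against a7.10 passed by DESeq2 (0.96) and ranged from 0.72 to 1.22 without 1 embryo. With the embryo, or the equal embryo number, as a replicate block no call of KH.C7.43 changed; at 112 cells the lineage difference was 6.47 (adjusted p = 0.0518) and at 16 cells 3.46 (adjusted p = 0.122). By DESeq2, A9.13+A9.14 minus A9.9+A9.10 was -2.09 and a7.10 minus A7.4 was 1.93. A8.7 minus A8.5 was -0.26 without A8.7 embryo 5 (-0.26 to 4.97 without 1 embryo) and 3.0 with the replicate block as well, and A6.2 minus A6.1 ranged from -0.053 to 1.13.

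KH.C7.770 values rest on few counts, and fitted log2 changes against groups at 0 depend on the prior count. The 32-cell lineage difference was 0.0082 with RLE size factors and 0.036 with the A6.1 library of embryo 5 kept, and -0.17 to 0.16 without 1 embryo. The a8.22 step fell short without the low-count filter (6.95) and ranged from 1.91 to 7.36 without 1 embryo. The steps to a6.6 and a9.43+a9.44 ranged from -3.68 to 4.78 and from -6.97 to 1.4. A7.4 minus A7.2 was -1.58 with the replicate block and -2.58 to 0.77 without 1 embryo, and A7.4 minus A7.3 was -0.86 to 3.52. Likeness of the 2 genes was -0.13 and -0.046 with pseudocounts of 0.1 and 5 CPM, and -0.15 without A8.7 embryo 5. The cause of these changes was not tested. DESeq2 gave no adjusted p for KH.C7.43 at 112 cells, nor for KH.C7.770 in most steps and in A7.4 against A7.2 and a7.10 against A7.4. All 76 alternative levels lay within 1 SD. For types at 0 this could not fail, and it is a loose limit where the SD is above the mean. Only 2 embryos gave A9.13+A9.14 cells. DESeq2 called more genes than edgeR where few passed. Between lineages it called 201 against 15 at 16 cells, 962 against 523 at 112 cells and 343 against 139 at the neural plate stage. Between the epidermal and neural sides of the a line it called 18, 154, 132 and 254 against 1, 36, 17 and 91, in stage order. With the block the counts between lineages were 128 at 16 cells and 63 at 112 cells.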
